A study of Mus musculus with 2 samples.

Results

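The let-7 microRNA genes that exist as numbered genomic copies (let-7a, let-7c and let-7f), together with their relative Mir98, were examined in mouse hippocampus. The choice was by gene name. All 7 genes were present among the 2202 microRNA genes counted: Mirlet7a-1, Mirlet7a-2, Mirlet7c-1, Mirlet7c-2, Mirlet7f-1, Mirlet7f-2 and Mir98. The data were small RNA libraries (RNA below 30 nt) of tissue labelled layer of hippocampus, 2 in number, both from wild-type females of strain B6NCrl and both described as control. No treatment is named, and age is not given. Replicates 1 and 2 have separate biosample records and 1 donor record, so the spread between them may be technical. Their adapters were trimmed under different protocol documents, and trimming and biosample cannot be told apart.

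The let-7 family is among the oldest known groups of animal microRNAs and is abundant in differentiated tissue, including the adult brain. Each gene gives a hairpin precursor, from which Dicer releases a 5p and a 3p arm. For let-7 the 5p arm is the one mainly loaded into Argonaute, where its seed, bases 2 to 8, pairs with target messages such as those of Lin28, Hmga2 and Ras genes. Lin28 proteins in turn bind let-7 precursors and block their maturation in stem and progenitor cells. Several genes that lie apart in the genome can give an identical mature arm.

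The mature 5p sequences (RefSeq, GRCm38.p6) show what the gene copies have in common. They are printed 5′ to 3′, with the seed in capitals.
mmu-let-7a-5p: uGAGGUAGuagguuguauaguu
mmu-let-7c-5p: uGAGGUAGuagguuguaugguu
mmu-let-7f-5p: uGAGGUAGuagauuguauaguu
mmu-miR-98-5p: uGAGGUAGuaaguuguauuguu
All 12 let-7 family genes examined, the 7 above and Mirlet7b, Mirlet7d, Mirlet7e, Mirlet7g and Mirlet7i, share the 5p seed GAGGUAG. Counted from the 5′ end and against let-7a-5p, let-7c-5p carries A19G, let-7f-5p carries G12A, and miR-98-5p carries G11A and A19U. The let-7a arm lies in both Mirlet7a-1 and Mirlet7a-2, the let-7c arm in both Mirlet7c-1 and Mirlet7c-2, and the let-7f arm in both Mirlet7f-1 and Mirlet7f-2. Only Mir98, of the 7, has a 5p arm that no other annotated hairpin holds.

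A read of a shared 5p arm can be given to 1 copy only where it reaches past that arm. The 5p arms are therefore shown again with the base before and the 2 bases after them in capitals.
Mirlet7a-1: AugagguaguagguuguauaguuUU
Mirlet7a-2: UugagguaguagguuguauaguuUA
Mirlet7c-1: UugagguaguagguuguaugguuUA
Mirlet7c-2: GugagguaguagguuguaugguuUU
Mirlet7f-1: GugagguaguagauuguauaguuGU
Mirlet7f-2: AugagguaguagauuguauaguuUU
In every pair the base before the arm differs, so 1 extra base at the 5′ end separates the copies. At the 3′ end 2 extra bases are needed for let-7a and let-7c and 1 for let-7f. A read that starts at the first base of the arm must thus be 24 bases long to be found in a single let-7a or let-7c hairpin, and 23 bases long for let-7f. For miR-98-5p the shortest length searched, 18 bases, was enough. This search was by exact match among the 2202 annotated hairpins, and the rest of the genome was not searched.

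The 3p arms differ more among the members, as their sequences with seeds in capitals show.
mmu-let-7a-1-3p: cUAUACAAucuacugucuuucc
mmu-let-7c-2-3p: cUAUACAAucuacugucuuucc
mmu-let-7f-1-3p: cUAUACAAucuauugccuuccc
mmu-miR-98-3p: cUAUACAAcuuacuacuuuccu
mmu-let-7f-2-3p: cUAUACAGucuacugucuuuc
mmu-let-7a-2-3p: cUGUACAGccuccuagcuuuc
mmu-let-7c-1-3p: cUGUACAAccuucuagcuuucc
The first 4 share the seed UAUACAA, while let-7f-2-3p has UAUACAG, whereas let-7a-2-3p carries UGUACAG and let-7c-1-3p carries UGUACAA. Mirlet7a-1 and Mirlet7c-2, which differ in their 5p product, have the same 3p arm, and 26 bases in a row are common to these hairpins. The 3p arms of Mirlet7a-2, Mirlet7c-1, Mirlet7f-1, Mirlet7f-2 and Mir98 each lie in no other hairpin. Mirlet7a-1 and Mirlet7c-2 are thus the members with both annotated arms held elsewhere.

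**Figure D1:**
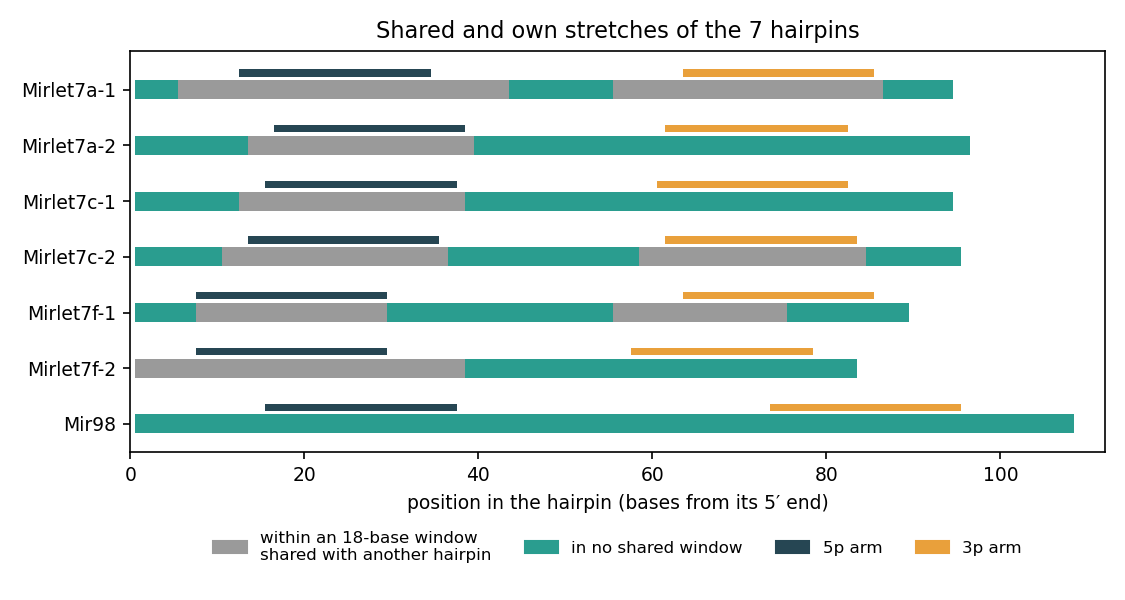
Stretches of each hairpin (x axis, bases from its 5′ end) that lie within an 18-base window held by another annotated hairpin (grey) or in no such window (green), with the 5p and 3p arms above. Mir98 is green throughout, whereas the 5p arms of the other 6 genes are grey.

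Measured in windows of 18 bases, 100% of Mir98, 88.9% of Mirlet7f-1, 88.6% of Mirlet7a-2, 88.3% of Mirlet7c-1, 87.9% of Mirlet7f-2, 78.2% of Mirlet7c-2 and 72.7% of Mirlet7a-1 were held by no other hairpin. The grey and green map of the hairpins marks bases and not windows, and a window held by no other hairpin can cross grey bases. In Mirlet7a-1, for example, 25 of 94 bases are green. In the 6 let-7 copies none of the green bases lies in the 5p arm.

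The members lie in 5 places of the mm10 genome, by the GENCODE M21 annotation. Mirlet7a-1 (chr13:48538179-48538272, minus strand, ENSMUSG00000065421.3) and Mirlet7f-1 (chr13:48537829-48537917, minus strand, ENSMUSG00000105621.1) lie in an exon of the long noncoding RNA 6720427I07Rik, with Mirlet7d beside them. Mirlet7a-2 (chr9:41536716-41536811, plus strand, ENSMUSG00000092770.1) is in introns of 3110039I08Rik and Gm49317, with Mir100 at a start distance of 5291 bases. Mirlet7c-1 (chr16:77599657-77599750, plus strand, ENSMUSG00000065557.3) is in an intron of Mir99ahg, 721 bases from Mir99a. Mirlet7c-2 (chr15:85706603-85706697, plus strand, ENSMUSG00000065608.1) is in an exon of Lncppara, 716 bases from Mirlet7b. Mirlet7f-2 (chrX:151912346-151912428, plus strand, ENSMUSG00000065602.1) and Mir98 (chrX:151913214-151913321, plus strand, ENSMUSG00000065536.2) are 868 bases apart in an intron of Huwe1, which encodes a ubiquitin ligase.

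The 2 libraries held 15794475 and 14300757 reads, of which 6713867 and 5901107 were counted on the strand of a microRNA gene. Reads mapping to several places numbered 6938312 and 6569009 and were given to no gene. Neuronal marker microRNAs fixed for this tissue summed to 24823 and 26709 CPM (sense counts per 1000000 over all microRNA genes), with Mir132 highest, while the copies Mir124a-1, Mir124a-2 and Mir124a-3 were at or near 0. Within this sum Mir128-1 (3723 and 8772 CPM) and Mir129-2 (2765 and 2894 CPM) were higher in replicate 2. Mir132 (15073 and 12540 CPM) and Mir138-2 (3259 and 2503 CPM) were lower. Reads shared by the Mir124a copies would be among those with several mapping places, so their counts are lower bounds. The sum and the order of these markers hold for the counted reads only. Muscle and erythrocyte markers stayed at or below 72.2 CPM in sum.

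The 7 genes together had 37508 counts in replicate 1 and 32931 in replicate 2. This is 0.559% and 0.558% of the sense counts, a summed level of 5584 ± 4.36 CPM (SD, n = 2). Of the counts on the 12 let-7 family genes, 1.70% (exact Clopper-Pearson 95% interval 1.68 to 1.72) lay on the members in replicate 1 and 1.73% (1.71 to 1.74) in replicate 2. The intervals are binomial within each library and cover counting error only. Since these reads carry no molecular identifiers, repeated copies of a molecule cannot be told apart, and the intervals may be too narrow. For each count on a member there were 185 and 199 reads with several mapping places. That class is not broken down by gene, so the counts of the 6 let-7 copies are lower bounds on an unknown total.

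Mir98 had 14158 counts in replicate 1 and 5907 in replicate 2, or 2109 and 1001 CPM. It had the highest mean of the 7, 1555 ± 783 CPM (SD, n = 2), and its 2 values were the farthest apart of any member. In replicate 1 it ranked 58th of all microRNA genes and in replicate 2 it ranked 84th.

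Mirlet7f-2, the neighbour of Mir98, had 10087 and 8723 counts, or 1502 and 1478 CPM, with a mean of 1490 ± 17.1 CPM (SD, n = 2). It was the steadiest of the 7 relative to its level. Both of its values lay between those of Mir98, so the order of these 2 genes turned between the libraries.

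Mirlet7c-2 had 6033 and 9218 counts, or 899 and 1562 CPM, a mean of 1230 ± 469 CPM (SD, n = 2). Mirlet7c-1 had 3395 and 4883 counts, or 506 and 827 CPM, a mean of 667 ± 228 CPM. Both were higher in replicate 2, and the values of the 2 copies did not overlap. In replicate 2 Mirlet7c-2 was the highest member.

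Mirlet7a-1 had 1677 and 1715 counts, or 250 and 291 CPM, with a mean of 270 ± 28.9 CPM (SD, n = 2). Mirlet7a-2 had 1380 and 1663 counts, or 206 and 282 CPM, with a mean of 244 ± 53.9 CPM. The ranges of these 2 copies overlapped.

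Mirlet7f-1 was the lowest member in both libraries, with 778 and 822 counts, or 116 and 139 CPM, and a mean of 128 ± 16.6 CPM (SD, n = 2). Its reads were counted only because strand was used. The gene Gm24111 is annotated on the opposite strand at the same place, and without strand Mirlet7f-1 had 0 counts in both libraries. Gm24111 itself had 0 sense counts in each library, where 0 allows up to 0.447 and 0.508 CPM. Reads on the opposite strand of the 7 members numbered 0 in both libraries, which allows up to 0.00800% and 0.00911% of their sense counts.

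By mean level the order was Mir98, Mirlet7f-2, Mirlet7c-2, Mirlet7c-1, Mirlet7a-1, Mirlet7a-2 and Mirlet7f-1. The top 3 overlapped in their ranges over the libraries, as did the let-7a copies. Mirlet7c-1 lay below these 3 and above the let-7a copies in both libraries, and Mirlet7f-1 lay below all others. The arms are 21 or 22 bases long in every case, and the CPM were not divided by length.

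**Figure D2:**
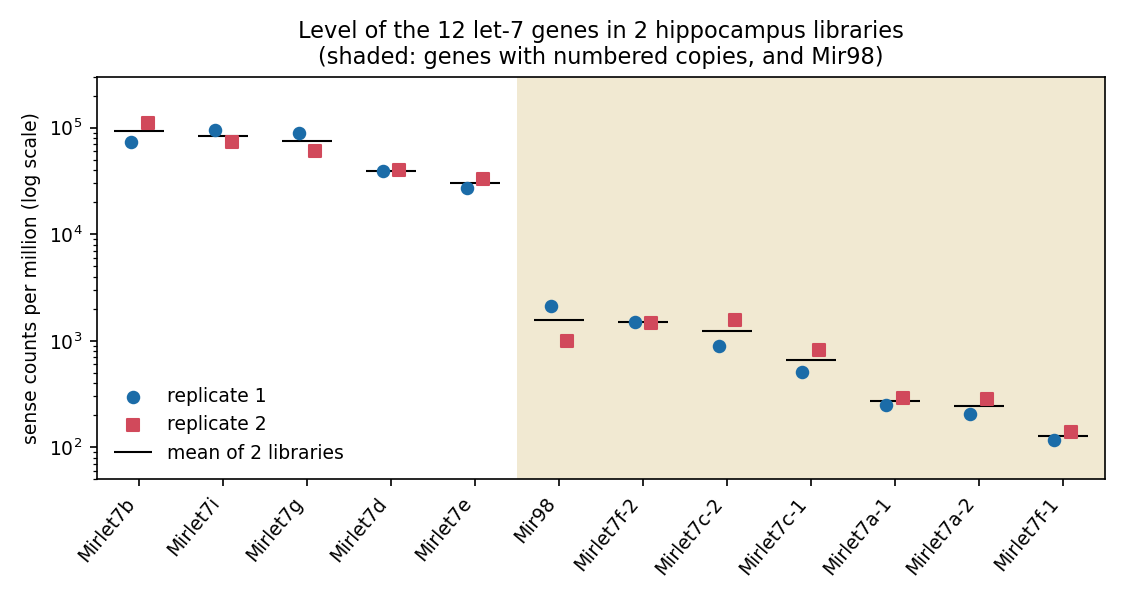
Level in CPM of sense counts (y axis, log scale) of 12 let-7 family genes in replicate 1 (circles) and replicate 2 (squares), with the mean as a line. The 7 shaded genes lie between 116 and 2109 CPM, below the 5 single-copy genes in both libraries. Levels of the let-7a, let-7c and let-7f copies are lower bounds, since reads with several mapping places were given to no gene.

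The 5 let-7 genes without a numbered copy were all higher than every member. Their levels ran from 27311 to 94910 CPM in replicate 1 and from 32640 to 111790 CPM in replicate 2. The lowest of them, Mirlet7e, exceeded the highest member 12.95-fold in replicate 1 and 20.9-fold in replicate 2. In sum they stood 57.9 and 57.0 times above the 7. Each of these 5 genes has a 5p arm found in no annotated hairpin at another place, while the levels of the let-7a, let-7c and let-7f copies are lower bounds. That limit applies to the 20.9-fold ratio, which is over Mirlet7c-2, and to the sums, which include these copies. The 12.95-fold ratio is over Mir98, whose arms lie in no other annotated hairpin. All these ratios are of counted reads and do not give ratios of the mature products. With 1 group of 2 libraries no test of this gap was made.

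Copies of the same mature microRNA took unequal parts of the counts. Mirlet7f-2 exceeded Mirlet7f-1 12.97-fold in replicate 1 and 10.6-fold in replicate 2, although both encode let-7f-5p. Mirlet7c-2 exceeded Mirlet7c-1 1.78-fold and 1.89-fold. For let-7a the copies were close, with Mirlet7a-1 over Mirlet7a-2 at 1.22-fold and 1.03-fold. These are ratios of reads that map to 1 place, and they do not give the ratio of the mature products.

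The split between copies differed by at most 4.09 percentage points between the libraries. Mirlet7a-1 held 54.9% of the let-7a counts in replicate 1 (exact 95% interval 53.1 to 56.6) and 50.8% in replicate 2 (49.1 to 52.5). Mirlet7c-1 held 36.0% (35.0 to 37.0) and 34.6% (33.8 to 35.4) of the let-7c counts. Mirlet7f-1 held 7.16% (6.68 to 7.66) and 8.61% (8.06 to 9.19) of the let-7f counts. The 2-sided Fisher exact test of copy by library gave p = 0.00106, 0.0298 and 0.000124 for let-7a, let-7c and let-7f, and 0.00159, 0.0298 and 0.000372 after Benjamini-Hochberg adjustment over the 3 pairs. All 3 shifts were thus larger than counting error, which is all this test covers.

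Within the 7 genes the makeup of the counts differed between the libraries. Mir98 held 37.7% of their counts in replicate 1 and 17.9% in replicate 2, while Mirlet7c-2 went from 16.1% to 27.99% and Mirlet7c-1 from 9.05% to 14.8%. Mirlet7f-2 stayed at 26.9% and 26.5%. Without Mir98 the 6 copies summed to 3478 CPM in replicate 1 and 4579 CPM in replicate 2. Whether the sum of all 7 was level depends on the scaling, since its log2 ratio was -0.0016 under totals, 0.15 with the size factors of DESeq2 and 0.16 under TMM, the trimmed mean of M values that edgeR computes.

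**Figure D3:**
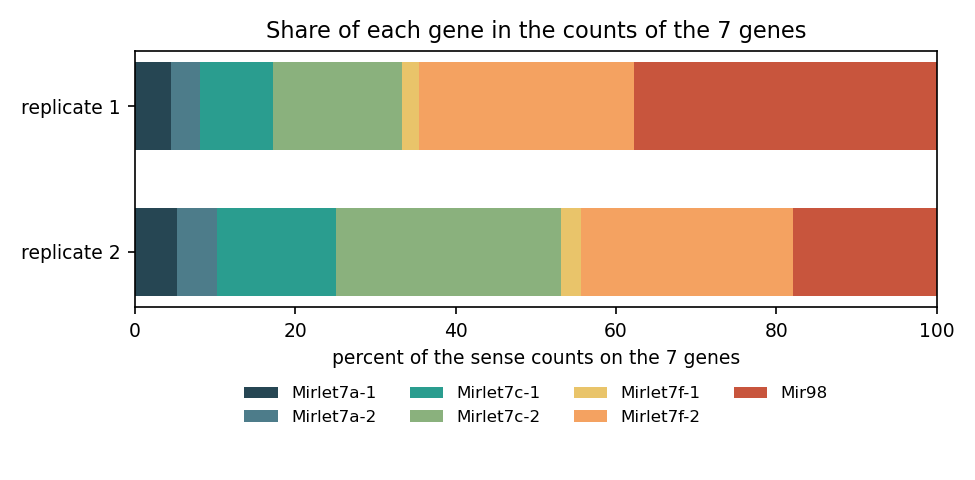
Percent of the sense counts on the 7 genes (x axis) held by each gene in replicate 1 and replicate 2. The part of Mir98 is 37.7% in replicate 1 and 17.9% in replicate 2, and that of Mirlet7c-2 is 16.1% and 27.99%.

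Differences between the libraries were tested for each gene with a 2-sided Fisher exact test of its counts against all others, adjusted by Benjamini-Hochberg over the 466 genes whose counts averaged 10 or more. All 7 members were among these. A gene counts as higher or lower only if its adjusted p was below 0.05 and its ratio had 1 sign under TMM, totals and DESeq2 size factors. The test compares these 2 libraries and no condition, and the calls rest on counting error alone. It compares shares of the totals, so its p-values go with the ratios under totals and not with the TMM ratios. Of the 7 members 6 passed, beside a background of 57.5% of all tested genes. Higher in replicate 2 were 5 of the 7, beside 84 of all 466 tested genes (18%), and 1 was lower, beside 35.6%.

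The median log2 ratio (replicate 2 over replicate 1, TMM, with 0.5 counts added) was 0.43 over the 7 members and -0.02 over all 466 tested genes. Under totals, which moved all ratios by -0.16, these medians were 0.27 and -0.18. Single-copy let-7 genes had a median of 0.18, with Mirlet7b, Mirlet7d and Mirlet7e higher and Mirlet7g and Mirlet7i lower.

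The let-7c copies had the highest positive ratios of the 7. Mirlet7c-2 was higher by a log2 ratio of 0.96 (counting SE 0.02, adjusted p = 5.14e-250 by the Fisher exact test) and Mirlet7c-1 by 0.87 (SE 0.03, adjusted p = 7.07e-109). Of the tested genes, 14.4% and 17.8% had a ratio of larger size. Under totals, the scale of the exact test, Mirlet7c-2 had a log2 ratio of 0.80 and Mirlet7c-1 one of 0.71. By reads that map to a single place, both copies of let-7c, on different chromosomes, were thus higher in replicate 2. Reads that match both copies of a microRNA are in neither count, here and below. The part of read ends and trimming in these ratios was not tested.

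The let-7a copies and Mirlet7f-1 were higher in replicate 2 by less. Mirlet7a-2 had a log2 ratio of 0.62 (SE 0.05, adjusted p = 1.48e-17 by the Fisher exact test), Mirlet7f-1 one of 0.43 (SE 0.07, adjusted p = 0.000548) and Mirlet7a-1 one of 0.38 (SE 0.05, adjusted p = 2.51e-05). A ratio larger than that of Mirlet7a-1 was found in 48.1% of the tested genes. Under totals, the scale of the exact test, the log2 ratios were 0.46 for Mirlet7a-2, 0.27 for Mirlet7f-1 and 0.22 for Mirlet7a-1.

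Mirlet7f-2 did not pass, with a log2 ratio of 0.14 (SE 0.02, adjusted p = 0.362 by the Fisher exact test). Its sign depended on the scaling, at -0.02 under totals. The exact test compares shares of the totals, and on that scale the values 1502 and 1478 CPM were close.

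Mir98 was the only member lower in replicate 2, at a log2 ratio of -0.91 under TMM (SE 0.02), with -1.07 under totals and -0.92 by the size factors of DESeq2. Its p-value by the Fisher exact test lay below the smallest number the software holds. A larger ratio was found in 15.9% of the tested genes. Among markers of other cells, Mir126a of endothelium was at 6191 CPM in replicate 1 and 2897 CPM in replicate 2. The oligodendrocyte pair Mir219a-2 and Mir338 summed to 7067 and 3183 CPM, and the erythrocyte pair Mir451a and Mir486 to 72.2 and 31.7 CPM, each gene being lower in replicate 2. The muscle pair Mir206 and Mir499 summed to 37.1 and 22.9 CPM, both genes being lower in replicate 2, though Mir499 did not pass the exact test. The astrocyte, microglia and leukocyte, and choroid plexus lists were mixed. The astrocyte sum was 48378 and 55777 CPM, with Mir29a lower in replicate 2 (10620 and 8338 CPM) and Mir23b and Mir125a higher. The microglia and leukocyte sum was 1968 and 2200 CPM, with Mir150 higher (1303 and 1815 CPM) but Mir146 (658 and 380.4 CPM) and Mir142 (47 and 22 counts) lower. The choroid plexus sum was 2016 and 1728 CPM, with Mir204 higher (1532 and 1653 CPM) but Mir34c (451 and 61.2 CPM) and Mir449a (32.6 and 13.9 CPM) lower. No gene of these lists was at 0 in both libraries. Their part in the ratios of the members was not tested, and fewer cells of a type and less RNA per cell cannot be told apart in bulk tissue.

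**Figure D4:**
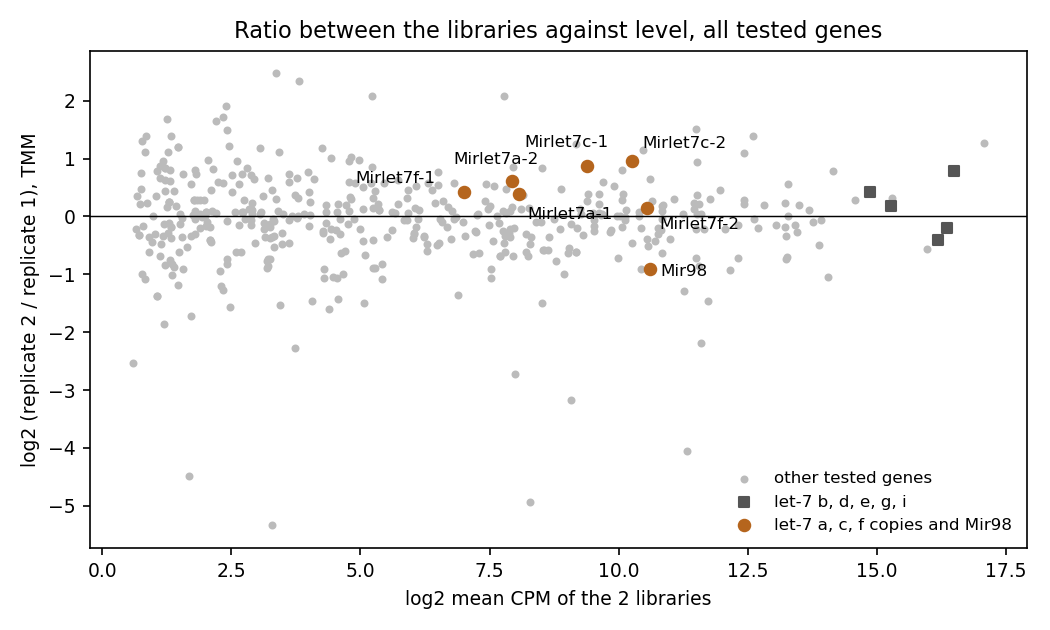
Log2 ratio of replicate 2 over replicate 1 under TMM (y axis) against log2 mean CPM (x axis) for the 466 tested genes, with members in brown and single-copy let-7 genes as dark squares. Mir98 lies at -0.91, and the other 6 members lie between 0.14 and 0.96, of which Mirlet7f-2 turns to -0.023 under totals.

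Neighbours in the genome did not always move together. Genes of one cluster can be cut from the same primary transcript, which makes their ratios worth setting side by side. The ratios of the let-7 copies rest on reads that map to a single place, so they may not be like measures to those of their neighbours. These 7 pairs were tested after the values had been seen, with a 2-sided Fisher exact test of gene by library, adjusted over the 7 pairs.

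On chromosome X, Mir98 over Mirlet7f-2 was 1.40 in replicate 1 and 0.677 in replicate 2. The log2 ratio of Mir98 was lower than that of Mirlet7f-2 by a difference of -1.05 (SE 0.03, adjusted p = 2.92e-260 by the Fisher exact test). These 2 genes, both in the Huwe1 intron, had the widest gap of the 7 pairs.

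On chromosome 16, Mir99a had a log2 ratio of -0.06 (SE 0.01) and Mirlet7c-1 one of 0.87, a difference of 0.93 (SE 0.03, adjusted p = 4.3e-178 by the Fisher exact test). Mir125b-2, farther along the same host transcript, had 0.02. On chromosome 9, Mir100 had -0.04 and Mirlet7a-2 had 0.62, a difference of 0.66 (SE 0.05, adjusted p = 2.2e-34 by the same exact test), and Mir125b-1 had 0.04. In both of these clusters the let-7 copy had the high ratio, and its neighbours, of the Mir99, Mir100 and Mir125 families, lay near 0. Mir99a and Mir100 were called lower, and the sign for Mir125b-1 and Mir125b-2 depended on the scaling.

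On chromosome 15 the neighbours went the same way. Mirlet7b was higher in replicate 2 at 0.78 and Mirlet7c-2 at 0.96, a difference of 0.18 (SE 0.02, adjusted p = 2.28e-13 by the Fisher exact test). Mirlet7b exceeded Mirlet7c-2 80.9-fold and 71.6-fold.

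On chromosome 13, Mirlet7d had a log2 ratio of 0.18, Mirlet7a-1 one of 0.38 and Mirlet7f-1 one of 0.43. The members stood above Mirlet7d by 0.20 (SE 0.05) and 0.25 (SE 0.07), with adjusted p = 8.08e-05 and 0.000751 by the Fisher exact test. Between Mirlet7a-1 and Mirlet7f-1 the difference was 0.05 (SE 0.09, adjusted p = 0.606 by the same exact test), and Mirlet7a-1 exceeded Mirlet7f-1 2.16-fold and 2.09-fold. This was the only pair of the 7 that did not pass.

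**Figure D5:**
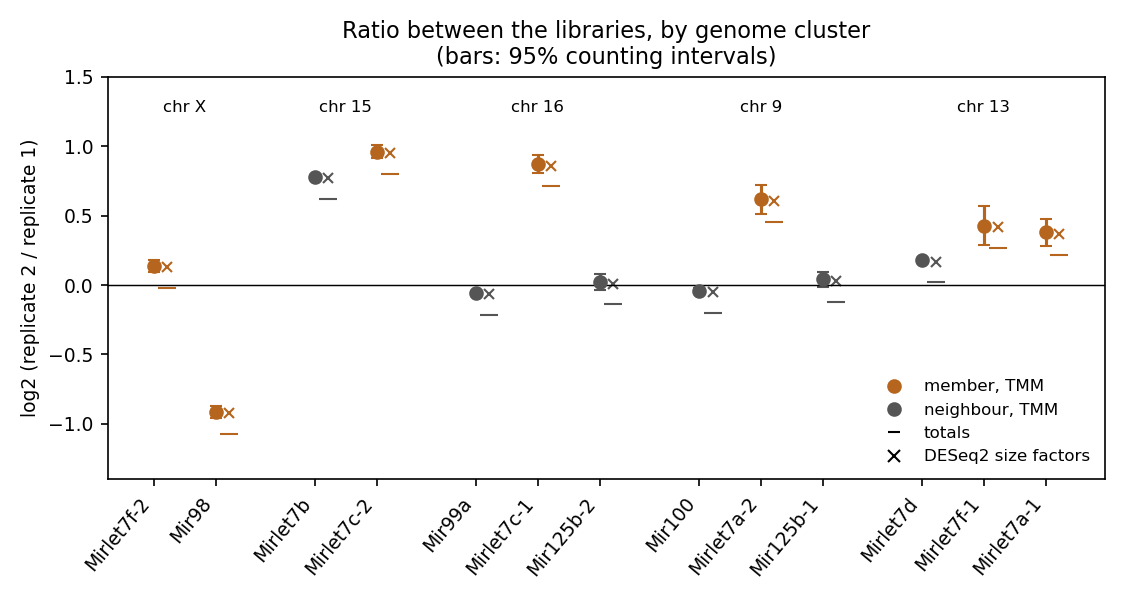
Log2 ratio of replicate 2 over replicate 1 (y axis) for the members (brown) and their neighbours (grey), grouped by genome cluster, under TMM (circles, with 95% counting intervals), totals (dashes) and DESeq2 size factors (crosses). Mir98 lies at -0.91 beside Mirlet7f-2 at 0.14 (-0.023 under totals), and Mirlet7c-1 at 0.87 beside Mir99a at -0.06.

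Genes outside the family with the most similar levels were found by Euclidean distance in log2(CPM + 1) over the 2 libraries, which uses only level and ratio. For Mir98 the nearest were Mir7b (1865 and 893 CPM, distance 0.24) and Mir341 (1854 and 1169 CPM, distance 0.29). Those nearest to Mirlet7f-2 were Mir204 (distance 0.16) and Mir222 (0.22), and those nearest to Mirlet7c-2 were Mir668 (0.27) and Mir128-2 (0.28). Mirlet7c-1 lay nearest to Mir129-1 (0.35) and Mir323 (0.43), and Mirlet7f-1 to Mir101b (0.29) and Mir3072 (0.37). The let-7a copies lay nearest to Mir1224 (0.09) and Mir872 (0.18) for Mirlet7a-1, and to Mir1306 (0.17) and Mir299a (0.18) for Mirlet7a-2.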

How the data were processed

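The authors deposited raw read counts per microRNA gene for each of the 2 libraries, on mm10 and annotation M21 per the labels and library notes. Neither aligner nor counting program is given in the sources used here. The 3 columns have no heading. By their values they are unstranded, sense and antisense counts. The sense column was used, and library sizes omit the 4 rows of read classes. All 2202 identifiers matched microRNA genes of GENCODE M21. Hairpins came from GENCODE and arms from RefSeq (GRCm38.p6). Hairpins were identical in both for 12 of 12 let-7 genes. RefSeq's table lists let-7a-5p under Mirlet7a-1 only, and its position in Mirlet7a-2 was found by exact match. A hairpin annotated at the same place on the other strand did not count as another copy.

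Levels are CPM. TMM came from edgeR 4.0.16 and size factors from DESeq2 1.42.0. Fisher exact tests were run in SciPy 1.17.1, with Benjamini-Hochberg adjustment over 466 genes. These steps were tried on simulated counts with counting error only, without TMM or DESeq2 size factors. That trial does not cover variation between libraries beyond counting. With a single group there was no contrast for edgeR's quasi-likelihood test. Alternatives were the scaling, the strand, the filter on low counts, the counts added, the window length and each library alone. The named genes are the 7 members, the single-copy let-7 genes, cluster neighbours and the 2 tested genes nearest to each member. The members and lists were chosen with earlier results of these data known.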

Additional observations from a re-analysis of the deposited data

How the results depend on the processing

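Scaled by all reads of the library the summed level of the 7 genes was 2339 CPM, and without strand it was 5828 CPM, against 5584 CPM. Under TMM it was 5592 CPM and under DESeq2 size factors 5591 CPM. In replicate 2 alone it was 5580 CPM and in replicate 1 alone 5587 CPM. The share of let-7 family counts on the members was 1.84% without strand, which removes Mirlet7f-1 and Mirlet7e, against 1.71%, and 1.70% and 1.73% in the single libraries. Of 27 alternative log2 ratios 26 kept their sign, and that of Mirlet7f-2 turned to -0.023 under totals. Totals and DESeq2 size factors shift all ratios alike, by at most 0.16. Without strand every member but Mirlet7f-1 keeps its counts. Only Mirlet7f-2, at 0.14, had a ratio small enough to turn, so this tally says little about the other members. The number of members past the exact test was 6 at a minimum mean of 50 counts and with no filter, and 5 without strand, where Mirlet7f-1 has no counts. With windows of 22 bases the part of Mirlet7a-1 held by no other hairpin was 90.4%. No paired analysis was possible because the labels hold a single group. With either library left out no ratio can be formed. Counting error was largest for Mirlet7f-1, with a standard error of 0.07 on the log2 ratio, and the part of the let-7 copies in reads with several mapping places was not measured.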
